A study of Mus musculus with 8 samples.

Results

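The 39 genes described here form the antioxidant programme of Nrf2, with its CNC and Maf partners and its Bach competitors, and were taken as a fixed list from all 21000 protein-coding genes with a curated RefSeq transcript. Nrf2 (gene Nfe2l2) is a basic leucine zipper factor that is held back by Keap1 and released under oxidative stress. It pairs with a small Maf protein and binds antioxidant response elements, a DNA motif whose core can contain the AP-1 site, while Bach1 and Bach2 pair with the same small Maf proteins and repress many of the same genes. c-Jun is a component of AP-1, which binds TGACTCA and its reverse complement TGAGTCA, so both families of factors can read overlapping letters.

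c-Jun binding was mapped by ChIP-seq in mouse epiblast stem cells (EpiSCs), which are primed pluripotent cells, and in kEpiSCs, an EpiSC line that carries a Klf4 transgene under the CAG promoter and an Oct4-GFP reporter and was selected after lentiviral infection. Per line there were 2 ChIP and 2 input libraries and 1 deposited peak list on mm10, so no spread between replicates could be computed and no test was made. Both lines were grown as primed cells, without feeders, in medium with Activin A, bFGF and 2-mercaptoethanol. The strain is given as CBA/CaJ X C57BL/6J for the EpiSC ChIP libraries and is blank in the labels of the others. The paper derived its EpiSCs by crossing females of a strain those labels do not name with males that carry the Oct4-GFP reporter. The reporter is therefore not particular to kEpiSCs. kEpiSC stands for 1 transgenic line, so the effect of Klf4 and of the line cannot be told apart.

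The EpiSC list held 16166 peaks and the kEpiSC list 6032. A peak's fold enrichment is the ChIP pile-up at its summit over the local background, with 1 added to both. The median fold enrichment was 6.16 in the EpiSC list and 7.23 in the kEpiSC list. The number of ChIP reads piled up at a summit, solved from each peak's fold enrichment and p-value, had a median of 10 in EpiSCs and 14 in kEpiSCs, so most peaks rested on few reads. Because the lists differ in length and in background, a peak listed in 1 line alone was not taken as a difference in binding. The intervals given below are 95% Wilson intervals and cover counting error only.

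The sequences that carry the motifs are shown first, because the results below refer back to them. All are printed on the plus strand of mm10 and were read from the reference genome. Capitals mark AP-1 sites with any GC that follows them, antioxidant-type sites (TGACNNNGC on either strand), or letters that are both, as in TGACTCAGC. TGAGTCAGC, whose other strand reads GCTGACTCA, is an AP-1 site followed by GC but not an antioxidant-type site. The other strand of TGACTCAGC reads GCTGAGTCA. The element upstream of Hmox1 and those beside the metallothionein genes held the combined form.
Hmox1, chr8:75083929-75084034: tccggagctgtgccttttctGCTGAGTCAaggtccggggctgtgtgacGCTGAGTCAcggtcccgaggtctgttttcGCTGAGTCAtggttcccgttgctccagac
Mt1, chr8:94186711-94186759: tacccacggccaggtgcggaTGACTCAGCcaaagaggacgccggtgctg
Mt2, chr8:94172519-94172567: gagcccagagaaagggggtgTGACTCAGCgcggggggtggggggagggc

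The peaks of Mafk, Srxn1, Bach1 and Sqstm1 gave the next set, where a peak of one line overlaps a peak of the other. The Srxn1 window carries 2 AP-1 sites, the second of them followed by GC, and the summit of the highest-scoring EpiSC peak of any member lies between them. The shorter Srxn1 run is part of the 5′ UTR and lies in the EpiSC peak, beyond the end of the kEpiSC peak.
Mafk intron 1, chr5:139795024-139795098: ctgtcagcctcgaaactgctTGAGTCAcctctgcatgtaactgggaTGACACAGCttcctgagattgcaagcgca
Mafk upstream, chr5:139784960-139785006: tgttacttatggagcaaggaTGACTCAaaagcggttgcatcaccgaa
Srxn1 upstream, chr2:152105402-152105507: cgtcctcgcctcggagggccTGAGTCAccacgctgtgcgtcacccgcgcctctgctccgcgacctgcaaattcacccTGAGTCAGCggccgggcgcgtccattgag
Srxn1 5′ UTR, chr2:152105542-152105570: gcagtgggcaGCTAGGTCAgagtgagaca
Bach1, chr16:87689450-87689496: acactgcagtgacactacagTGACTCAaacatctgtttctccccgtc
Sqstm1, chr11:50213209-50213255: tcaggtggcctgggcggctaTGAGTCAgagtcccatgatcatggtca

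The remaining set comes from peaks listed in 1 line, kEpiSCs for Gpx4 and EpiSCs for the others.
Txnrd1, chr10:82851911-82851957: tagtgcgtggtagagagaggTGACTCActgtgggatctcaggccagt
Txn1, chr4:57955582-57955628: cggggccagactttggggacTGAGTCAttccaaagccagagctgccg
Prdx1, chr4:116679354-116679400: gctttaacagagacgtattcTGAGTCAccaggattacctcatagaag
Osgin1, chr8:119430806-119430852: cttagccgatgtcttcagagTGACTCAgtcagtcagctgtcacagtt
Ftl1, chr7:45451549-45451597: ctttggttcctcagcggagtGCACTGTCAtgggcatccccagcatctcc
Gpx4, chr10:80052204-80052250: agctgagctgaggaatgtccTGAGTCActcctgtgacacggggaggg

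To ask how often c-Jun lay near these genes, a member was counted when the centre of a peak fell within 10 kb of one of its transcription start sites (TSSs). In EpiSCs 17 of 39 members had such a peak, or 43.6% (29.3% to 59.0%), against 21.8% of all protein-coding genes. In kEpiSCs the count was 11 of 39, or 28.2% (16.5% to 43.8%), against 8.27% of all genes. The members' share was 2.00 times that of all genes in EpiSCs and 3.41 times in kEpiSCs. Both lower bounds lay above the share of all genes, but this is a description and not a test. The list was chosen with earlier results of these data known, and neighbouring members such as Mt1 and Mt2 share peaks. Members were somewhat shorter than other genes, with a median gene length of 13039 bp against 17741.5 bp. When the share of all genes was averaged over the length groups in which the members fall, it was 22.6% in EpiSCs and 8.38% in kEpiSCs, so gene length moved it little.

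The members' share was also the higher one at other distances. Within 5 kb, 11 members had an EpiSC peak (28.2% against 15.3% of all genes) and 9 a kEpiSC peak (23.1% against 5.13%). Within 50 kb the counts were 31 (79.5% against 50.7%) and 19 (48.7% against 27.0%). A peak in both lines within 10 kb was found for 10 members, or 25.6% against 6.58% of all genes. A further 7 members had one in the EpiSC list alone, Nfe2l2 had one in the kEpiSC list alone, and 21 had none in either. Of all genes, 21.8% had an EpiSC peak within 10 kb, 8.27% a kEpiSC peak and 6.58% one in both. Peaks in the EpiSC list alone were thus common among all genes too, and these counts were not read as a trait of the members.

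**Figure D1:**
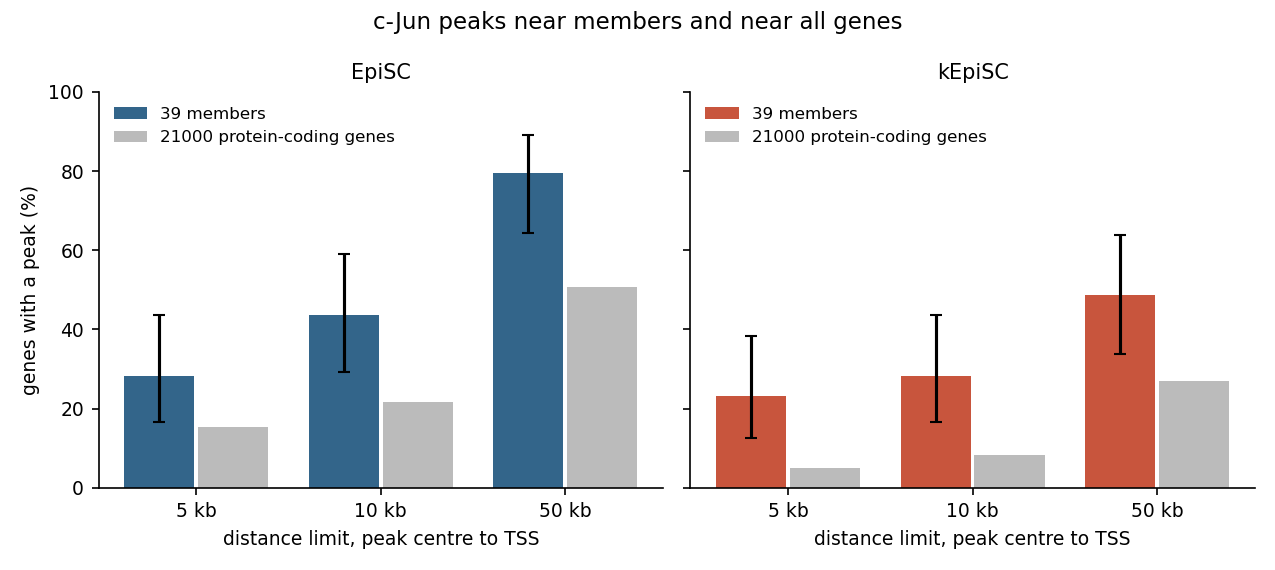
Bars give the percentage of genes whose nearest c-Jun peak centre was at most 5, 10 or 50 kb from a TSS in EpiSCs (left) and kEpiSCs (right), for the 39 members (coloured, error bars are 95% Wilson intervals) and for all 21000 protein-coding genes (grey). The members' bar is higher at every distance in both lines, for example 43.6% against 21.8% within 10 kb in EpiSCs.

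As a set for comparison, 44 further genes of the same pathways were taken, such as other glutathione S-transferases, peroxiredoxins and Cul3. Within 10 kb, 12 of 44 (27.3%) had an EpiSC peak and 3 of 44 (6.82%) a kEpiSC peak, against 21.8% and 8.27% of all genes. Those with the highest fold enrichment in EpiSCs were Abcc4, an organic anion exporter, at 13.2, Gstp1 at 7.94, the glutathione synthetase Gss at 6.87, the iron transporter Slc11a2 at 6.81, the aldose reductase Akr1b3 at 6.16 and Gsta4 at 5.82. In kEpiSCs the 3 genes were Gss (10.5), Abcc4 (6.69) and Gstp1 (6.47). At other distances 10 (22.7%) had an EpiSC peak within 5 kb and 33 (75.0%) within 50 kb, and 1 (2.27%) and 16 (36.4%) a kEpiSC peak. Within 10 kb their share was nearer to that of all genes than to that of the members in both lines, whereas in EpiSCs it was nearer to that of the members within 5 kb and 50 kb.

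Peaks were spread unevenly over the roles. Beside the 21.8% of all genes with an EpiSC peak within 10 kb, the thioredoxin and peroxiredoxin group had one at 4 of 5 genes, the group of other members (Sqstm1, Cat, Sod1, Sod2 and Osgin1) at 4 of 5, and the metallothioneins at both. The Maf genes and the heme and iron genes had one at 2 of 4 each, the CNC and Keap1 regulators at 1 of 5, the glutathione genes at 1 of 6, the genes of NADPH supply at 1 of 5 and those of detoxification and export at 0 of 3. In kEpiSCs, where the share of all genes was 8.27%, the counts in the same order were 2 of 5, 1 of 5, 2 of 2, 2 of 4, 1 of 4, 2 of 5, 1 of 6, 0 of 5 and 0 of 3. The groups are small, the lower counts are near the share of all genes, and differences between groups were not tested.

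**Figure D2:**
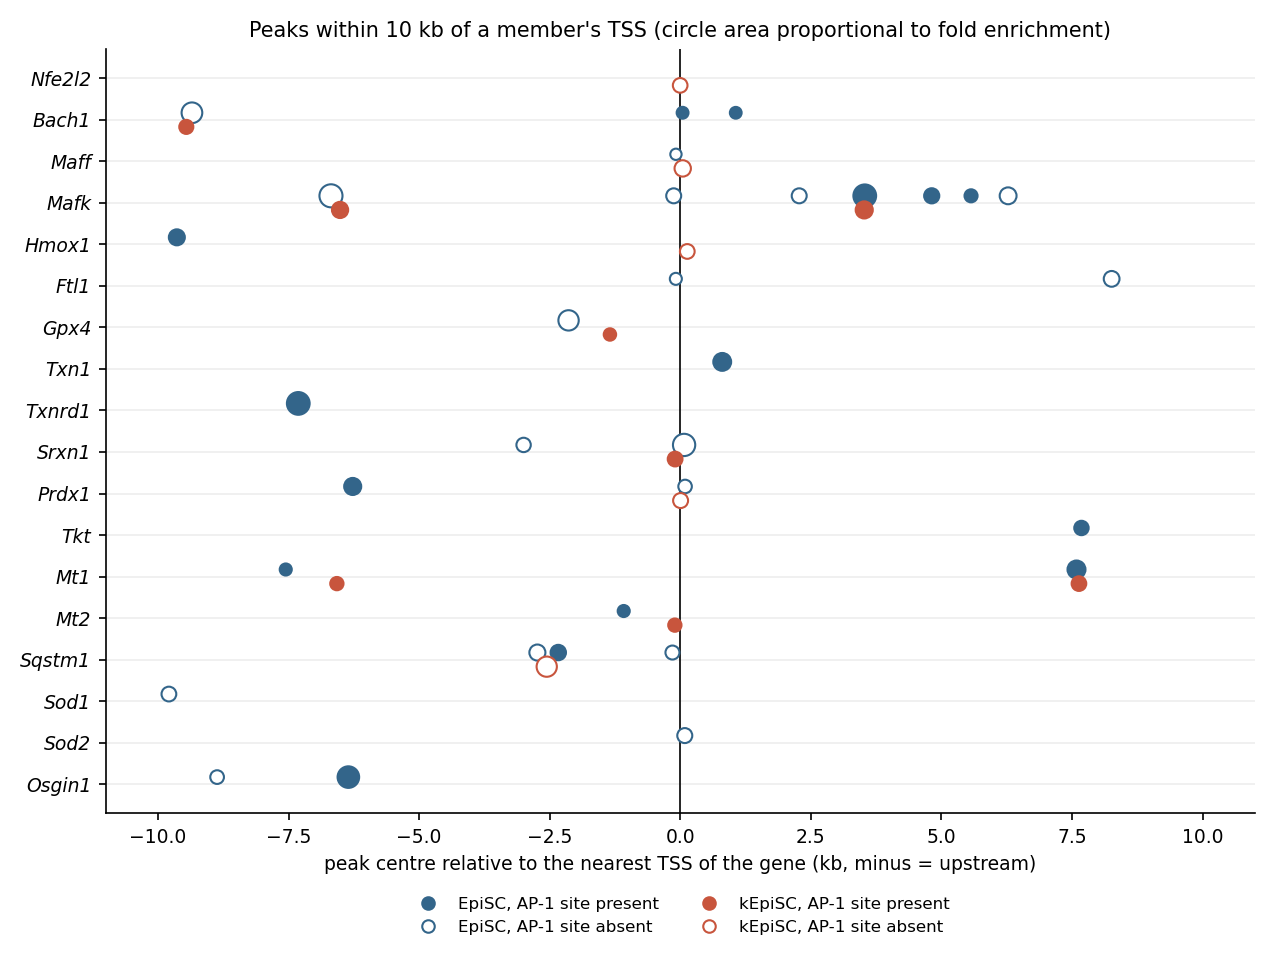
Each circle marks the centre of a peak near the named member, placed by its distance from the nearest TSS in kb (upstream is negative), with area proportional to fold enrichment. EpiSC peaks are blue and kEpiSC peaks red, filled where an AP-1 site lies in the central 200 bp. Mafk stands out with 7 EpiSC peaks, and Mt1 and Mt2 share their upstream peak in each line.

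Among the CNC and Keap1 regulators, Bach1 had the most c-Jun peaks. Bach1 represses antioxidant genes, Hmox1 above all, until heme releases it from DNA. In EpiSCs its strongest peak lay 9349 bp upstream (chr16:87689499-87689712) with a fold enrichment of 10.9 from 15 reads, and 9.43% of the list scored higher. The kEpiSC peak that overlaps it lay 9457 bp upstream with a fold enrichment of 5.06 from 8 reads. The AP-1 site printed for Bach1 is in the kEpiSC window and just outside the EpiSC peak. A second EpiSC peak lay over the Bach1 5′ UTR, 45 bp from the TSS, with 3.60 from 9 reads and 1 AP-1 site. Another, 1063 bp into intron 1, had 3.54 from 12 reads, 2 AP-1 sites and 1 antioxidant-type site, on a background 4.21 times the list's median. Both of these were weak, with 95.6% and 90.0% of the list scoring higher. Within 50 kb of its TSS Bach1 had 12 EpiSC peaks, a number that 0.267% of all protein-coding genes reached.

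Nfe2l2 itself had a kEpiSC peak with its centre 1 bp from the TSS (chr2:75704467-75704861), with a fold enrichment of 5.49 from 10 reads and neither motif in the central 200 bp. Its nearest EpiSC peak lay 11034 bp away in its own intron 1, with 4.79 from 6 reads. Keap1, the adaptor through which Nrf2 is degraded, had none near, the nearest being 14545 bp away in EpiSCs and 57770 bp in kEpiSCs. Nfe2l1, a related CNC factor known for proteasome genes, had its nearest peaks at 19235 and 19107 bp, inside intron 4 of Cbx1. For Bach2, known from lymphocytes, they were at 11608 and 11609 bp upstream, with fold enrichments of 7.28 and 4.76.

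The Maf genes divided into those with and without a peak. Mafk, a small Maf that has no activation domain of its own and serves as partner to Nrf2 and Bach1, had 7 EpiSC peaks within 10 kb, and 7 of 21000 genes (0.0333%) had as many or more. No further ones lay within 50 kb, and 1.96% of all genes had at least as many within that distance. The strongest lay 6687 bp upstream (chr5:139784604-139785094) with 13.6 from 19 reads, and 3533 bp downstream in intron 1 (chr5:139794979-139795160) with 13.2 from 19 reads. These were also the Mafk peaks in kEpiSCs, at 6513 bp upstream with 6.70 from 16 reads and at 3523 bp downstream with 7.48 from 18 reads. The intron 1 element held an AP-1 site and TGACACAGC, the upstream one an AP-1 site. The other 5 EpiSC peaks ranged in fold enrichment from 4.36 to 7.28, and 4 of them were also in intron 1.

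Maff, a second small Maf known to be induced by stress, had a peak at a TSS in both lines. In EpiSCs it lay 82 bp away with 3.27 from 11 reads, and in kEpiSCs 48 bp away with 6.85 from 17 reads. The EpiSC peak was weak, on a background 4.21 times the list's median, and 96.8% of the list scored higher. In the kEpiSC list 48.5% scored higher. Both peaks held the cyclic AMP response element TGACGTCA, which c-Jun is known to bind with ATF partners, and neither held an AP-1 or antioxidant-type site. Mafg had its nearest EpiSC peak 10341 bp away, just outside the limit, at the promoter of Pycr1, and its nearest kEpiSC peak 72778 bp away. The large factor Maf had its nearest peaks at 64272 and 64350 bp, with fold enrichments of 12.3 and 8.87 and 2 AP-1 sites in each.

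Hmox1, the heme oxygenase that opens the heme ring and the best known joint target of Nrf2 and Bach1, had a peak in each line but at different places. The EpiSC peak lay 9638 bp upstream (chr8:75083917-75084043), with 6.54 from 23 reads on a background 4.21 times the list's median, and 18.5% of the list scored higher. Its 3 AP-1 sites were all TGACTCAGC, centred 36 bp and 8 bp to the left and 21 bp to the right of the summit. 27 of 16166 EpiSC peaks (0.167%) held 3 or more such sites. Mouse Hmox1 is known for far upstream enhancers with repeated stress response elements of this sequence. The kEpiSC list had no peak there, and instead 1 in coding exon 1, 135 bp from the TSS, with 5.54 from 13 reads and neither motif.

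The ferritin light chain gene Ftl1, which stores iron, had EpiSC peaks 84 bp upstream with 3.70 from 6 reads, and 8260 bp downstream in coding exon 13 of Gys1 with 6.35 from 11 reads. Only the second held an antioxidant-type site, and neither held an AP-1 site. Its partner Fth1 had its nearest peaks 80937 and 374305 bp away. The iron exporter Slc40a1 had none closer than 1956074 bp in EpiSCs and 2140082 bp in kEpiSCs, the farthest of the members.

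In glutathione metabolism, 5 of 6 genes had no peak within 10 kb in either line. The exception was Gpx4, which reduces lipid peroxides in membranes. It had an EpiSC peak in intron 2, 2138 bp from an alternative TSS (chr10:80051268-80051586), with 10.6 from 19 reads and no motif. Its kEpiSC peak was a different one, 1346 bp from that TSS, with 3.93 from 19 reads on a background 6.30 times the list's median and 1 AP-1 site. The reductase gene Gsr lay just outside the limit, with peaks in its intron 1 at 10166 bp (6.84) and 10062 bp (6.15) in EpiSCs and kEpiSCs. The 2 subunits of the enzyme that starts glutathione synthesis had distant peaks, at 137572 and 137503 bp for Gclc and 49017 and 99965 bp for Gclm. For the cystine importer Slc7a11 the nearest were at 478540 and 478562 bp. For Gpx2, a glutathione peroxidase of the gut, they were at 22118 and 22104 bp inside intron 1 of Rab15, with fold enrichments of 10.9 and 8.03.

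The thioredoxin and peroxiredoxin genes held some of the strongest peaks. Srxn1 encodes sulfiredoxin, which restores overoxidised peroxiredoxins. Its EpiSC peak over the TSS (chr2:152105352-152105845, centre 74 bp from the TSS) had a fold enrichment of 12.7 from 26 reads, and 3.21% of the list scored higher. The kEpiSC peak at 98 bp upstream had 5.57 from 23 reads on a background 5.00 times the list's median. Both contain the 2 AP-1 sites of the printed window, which lie within the central 200 bp of the kEpiSC peak and outside that of the wider EpiSC peak. A weaker EpiSC peak 2999 bp upstream had 5.29 from 7 reads and an antioxidant-type site.

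Txnrd1, the cytosolic thioredoxin reductase, had an EpiSC peak in intron 1, 7313 bp upstream of an alternative TSS (chr10:82851734-82852053), with 13.2 from 19 reads and an AP-1 site. Its nearest kEpiSC peak was 35286 bp away. Txn1, its substrate thioredoxin, had an EpiSC peak 804 bp into intron 1 with 8.16 from 12 reads and an AP-1 site, and none in kEpiSCs closer than 90163 bp. Prdx1, a cytosolic peroxiredoxin, had EpiSC peaks at 6271 bp upstream with 7.43 from 11 reads and an AP-1 site, and at 93 bp from the TSS with 4.68 from 12 reads. The kEpiSC peak at the same promoter, 7 bp from the TSS, had 5.72 from 14 reads. Both promoter peaks of Prdx1 hold an AP-1 site followed by GC, outside their central 200 bp. That site lay 427 bp to the left of the EpiSC summit and 13 bp to the left of the kEpiSC summit. Prdx6 was the member of the group without one, although the peak 30069 bp away in EpiSCs (14.4 from 20 reads) and 30050 bp in kEpiSCs (10.8), with an AP-1 site, had a higher fold enrichment than any peak within 10 kb of a member in the same line.

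In NADPH supply only Tkt, the transketolase of the pentose phosphate pathway, had a peak. It lay 7682 bp into intron 1 in EpiSCs, with 5.29 from 9 reads and 3 AP-1 sites, and 0.693% of EpiSC peaks held as many. The nearest peaks of the others in EpiSCs and kEpiSCs were at 777817 and 861363 bp for G6pdx, 33258 and 102759 bp for Pgd, 14835 and 19959 bp for Taldo1, and 41509 and 50504 bp for Me1. None of the genes of detoxification and export had one. The quinone reductase Nqo1, a standard marker of Nrf2 activity, had its nearest at 46303 and 54700 bp, inside Wwp2. For the epoxide hydrolase Ephx1 they were at 109374 and 108543 bp, and for the conjugate exporter Abcc1 at 44156 and 41673 bp.

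The metallothioneins Mt1 and Mt2, which bind zinc and copper, lie side by side and shared peaks, so their counts are not separate observations. The peak 7587 bp downstream of the Mt1 TSS (chr8:94186495-94186857) had 8.27 from 22 reads in EpiSCs, and the overlapping kEpiSC peak had 5.48 from 27 reads on a background 6.30 times the list's median. Both held TGACTCAGC. The shared upstream peak differed in place: in EpiSCs it lay 1082 bp upstream of Mt2 and rested on 5 reads (3.72), and in kEpiSCs it lay 103 bp upstream of Mt2 and rested on 7 reads (4.51) with the second TGACTCAGC. In EpiSCs 97.4% of the list scored higher than this upstream peak, and in kEpiSCs 95.5%.

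Of the remaining members, Sqstm1, Osgin1, Sod1 and Sod2 had a peak and Cat did not. Sqstm1 encodes p62, an autophagy receptor that binds Keap1. Its kEpiSC peak 2556 bp upstream (chr11:50213129-50213623) had 10.5 from 18 reads, the highest score of the members in that line. It overlapped 2 EpiSC peaks, at 2335 bp with 6.07 from 15 reads and at 2735 bp with 6.59 from 13 reads. The printed AP-1 site lies inside the kEpiSC peak and just beyond the edge of the nearer EpiSC peak. An EpiSC peak 149 bp upstream had 5.00 from 8 reads. Osgin1, a stress-induced growth inhibitor, had EpiSC peaks 6354 bp upstream with 11.9 from 17 reads and an AP-1 site, and 8867 bp upstream with 4.79 from 6 reads. The superoxide dismutase genes had 1 EpiSC peak each. That of mitochondrial Sod2 lay 87 bp from the TSS with 5.75 from 13 reads and an antioxidant-type site. That of cytosolic Sod1 lay 9790 bp upstream, just inside the limit, with 5.58 from 8 reads and no motif. Catalase (Cat) had its nearest peaks 71690 and 71727 bp away, with fold enrichments of 8.99 and 6.01.

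**Figure D3:**
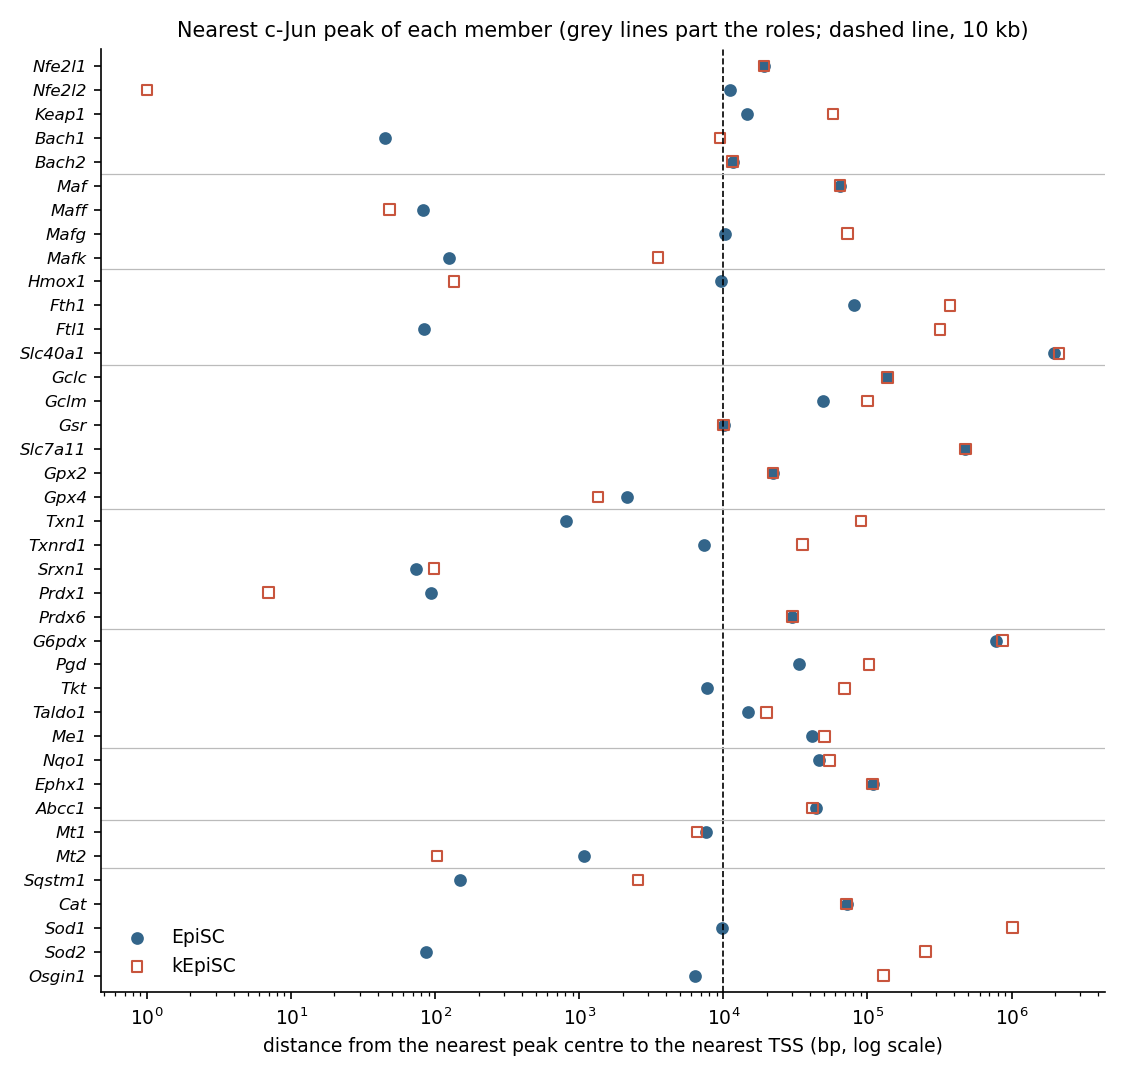
Distance in bp (log scale) from the nearest TSS of each member to the nearest peak centre in EpiSCs (filled circles) and kEpiSCs (open squares), with grey lines parting the roles in the order of the text and the dashed line at 10 kb. In several members without a near peak, such as Maf, Gclc, Slc7a11, Prdx6 and Cat, the points of both lines coincide.

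For the 22 members without an EpiSC peak within 10 kb, the nearest one lay 10 to 50 kb away for 14, 50 to 100 kb away for 3 and farther for 5, with a median of 42832.5 bp. Of all genes, 21.8% had an EpiSC peak within 10 kb and 50.7% within 50 kb. At 9 of the 22 the nearest peaks of both lines overlapped, and in 7 of those 9 the EpiSC peak held an AP-1 site. Over all EpiSC peaks, 28.3% overlapped a kEpiSC peak and 45.9% held an AP-1 site in the central 200 bp. The share with an AP-1 site among overlapping peaks was not computed, so no excess is read from these counts. Which gene a peak so far from a member acts on was not measured.

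Taken over distinct peaks, the members had 31 in EpiSCs and 12 in kEpiSCs, and for all 43 the nearest protein-coding TSS was that of a member. In EpiSCs 8 of 31 lay at promoters, from 1 kb upstream to 100 bp downstream of a TSS, beside 1450 of all 5185 EpiSC peaks near a TSS. Of the members' other peaks 12 lay between genes, 10 in introns, all but that of Gpx4 in intron 1, and 1 in a coding exon of Gys1. The fold enrichment of the 31 ran from 3.27 to 13.6 with a median of 5.87, against 5.82 for all 5185 EpiSC peaks within 10 kb of a protein-coding TSS. In kEpiSCs the members' fold enrichment ran from 3.93 to 10.5 with a median of 5.55, against 6.70 for all 1743. The members' median was thus near that of all such peaks in EpiSCs and below it in kEpiSCs. In the EpiSC list 7 of the 31 were in the top 10% by score and 15 above the list's median. In the kEpiSC list 0 of the 12 were in the top 10% and 4 were above the median.

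In EpiSCs 9 of the members' 31 peaks overlapped a kEpiSC peak, or 29.0% (16.1% to 46.6%), against 23.1% of all peaks near a TSS. In the other direction 8 of 12 kEpiSC peaks overlapped an EpiSC peak, or 66.7% (39.1% to 86.2%), against 68.9%. Both shares of the members were near those of all peaks. Where Mafk, Bach1, Srxn1 and the downstream element of Mt1 had overlapping peaks, the fold enrichment was higher in EpiSCs, and at Maff, Prdx1 and upstream of Sqstm1 it was higher in kEpiSCs. Each value is relative to the background of its own list.

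AP-1 sites lay in the central 200 bp of 14 of the members' 31 EpiSC peaks, or 45.2% (29.2% to 62.2%), against 35.7% of all peaks near a TSS and 8.06% of the members' own flanks, which are 200 bp windows 2 kb to either side. In kEpiSCs the count was 7 of 12, or 58.3% (32.0% to 80.7%), against 49.2%. Antioxidant-type sites lay in 9 EpiSC peaks, or 29.0% (16.1% to 46.6%), against 15.9% of all peaks near a TSS and 12.9% of the members' flanks, and in 3 of 12 kEpiSC peaks, or 25.0% (8.89% to 53.2%), against 18.6%. With so few peaks the intervals of the AP-1 shares and of the kEpiSC antioxidant-type share include the share of all peaks, so no difference was detectable at this depth. The EpiSC antioxidant-type interval began just above 15.9%. Searched over whole peaks the count was 11 of 31, or 35.5% (21.1% to 53.1%), against 17.9% of all peaks near a TSS. The members' peaks were wider, with a median of 224 bp against 192 bp, so a whole-peak search covered more sequence. In the 200 bp around the summit the count was 6 of 31, or 19.4% (9.19% to 36.3%), against 17.0%, and no difference was detectable there. The EpiSC antioxidant-type share at the members thus depended on the window searched.

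In the central 200 bp of the members' EpiSC peaks, 5 held both kinds of site, 9 an AP-1 site alone, 4 an antioxidant-type site alone and 13 neither. Either kind was thus in 58.1% of them, against 44.1% of all peaks near a TSS. Of those 5185 peaks, 385 held both kinds, 437 an antioxidant-type site alone and 2896 neither. The members' 4 with an antioxidant-type site and without AP-1 in that window were the 2 of Srxn1 and those of Ftl1 and Sod2. Their letters between TGAC and GC were not those of AP-1. The Srxn1 peak over the TSS held 2 AP-1 sites outside that window. Of the 13 with neither, the upstream peak of Mafk and the promoter peaks of Prdx1 and Sqstm1 also held an AP-1 site outside it. In the central 200 bp, 1 of the 8 promoter peaks held an AP-1 site and 13 of the 23 others (56.5%), beside 15.0% and 43.7% over all peaks near a TSS. The members' promoter peaks were wide, with a median of 406 bp, and searched whole 4 of the 8 held an AP-1 site and again 13 of the 23 others, beside 17.4% and 49.5%. The split at the members thus depended on the window searched. An AP-1 site followed by GC lay in the central 200 bp of 3 of 31 EpiSC peaks (Bach1, Hmox1 and Mt1), or 9.68% (3.35% to 24.9%), against 7.29% of all peaks near a TSS, and of 3 of 12 kEpiSC peaks, or 25.0% (8.89% to 53.2%), against 10.8%. Searched over whole peaks, the counts were 6 of 31, or 19.4% (9.19% to 36.3%), against 8.74%, and 4 of 12, or 33.3% (13.8% to 60.9%), against 12.4%, the added ones being the promoter peaks of Sqstm1, Srxn1 and Prdx1. More sequence was searched at the members here, because their peaks were wider. The median widths were 224 bp against 192 bp in EpiSCs and 266.5 bp against 184 bp in kEpiSCs.

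**Figure D4:**
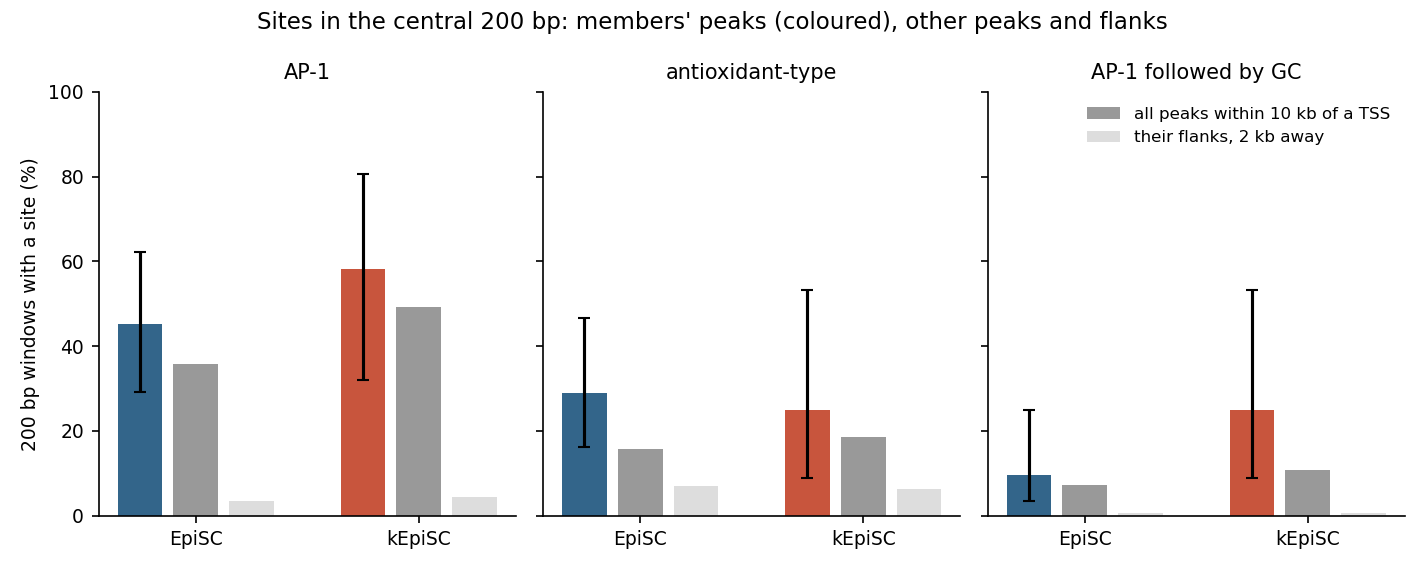
Percentage of 200 bp windows that hold an AP-1 site, an antioxidant-type site or an AP-1 site followed by GC, in members' peaks (coloured, with 95% Wilson intervals), in all peaks within 10 kb of a protein-coding TSS (dark grey) and in the flanks of the latter, 2 kb away (light grey). For AP-1 the members' bars, 45.2% and 58.3%, stand near those of all such peaks, 35.7% and 49.2%, and both far above the flanks.

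To compare the members' promoters with those of other genes, the RefSeq promoter windows on this build were searched. Each window spans 300 bases across a TSS, and windows were given for 32 of 39 members and for 16853 genes. An AP-1 site was present in 5 members' promoters (Srxn1, Prdx1, Me1, Mt2 and Osgin1), or 15.6% against 5.50% of all genes. In all 5 it was followed by GC, a form present in 0.872% of all genes' promoters. At Srxn1 and Osgin1 the letters were TGAGTCAGC, which are not antioxidant-type. Antioxidant-type letters were present in 13, or 40.6% against 15.0%. The members were listed as the programme of Nrf2, which binds elements with such letters. These promoter shares are therefore not independent of how the list was made. The 3 promoters of the first group not yet shown carry the site as follows, in capitals.
Prdx1, chr4:116685456-116685484: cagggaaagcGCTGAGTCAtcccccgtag
Me1, chr9:86695902-86695930: cgcgagaagcGCTGAGTCAcggcggcatc
Osgin1, chr8:119437038-119437066: aggggcccctGCTGACTCAcgcttatgaa

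A motif in the promoter did not go with a peak in every case. The AP-1 sites followed by GC of Srxn1 and Prdx1 lay inside a peak in both lines and that of Mt2 inside a kEpiSC peak, whereas those of Me1 and Osgin1 were in no peak. At Prdx1 the site was 427 bp from the EpiSC summit and 13 bp from the kEpiSC summit. A second AP-1 site of the Prdx1 window, 234 bp upstream of the TSS and not followed by GC, was in no peak, and the antioxidant-type site in the Srxn1 5′ UTR was in the EpiSC peak and not in the kEpiSC one. Over all genes, a peak overlapped the window in 32 of 147 genes with the AP-1 site followed by GC in EpiSCs, or 21.8% (15.9% to 29.1%). The share was 11.9% with other AP-1 sites, 8.56% with an antioxidant-type site alone, 5.67% with neither and 6.65% over all promoter windows. In kEpiSCs the same shares were 9.52% (5.76% to 15.4%), 5.63%, 2.12%, 1.34% and 1.76%. Of 22 members with a window that held neither, 5 had an EpiSC peak over it (Bach1, Ftl1, Maff, Sod2 and Sqstm1) and 1 a kEpiSC peak (Maff). At Mafk in EpiSCs and Nfe2l2 in kEpiSCs a peak overlapped the window but not its antioxidant-type site. Of the 13 members' promoters with antioxidant-type letters, those of Mafg, Gclm, G6pdx, Pgd, Me1, Txnrd1 and Sod1 had no peak over the window in either line. Nor had the Maff window that holds the letters, since the Maff peaks lie at another TSS.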

How the data were processed

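c-Jun ChIP and input libraries of EpiSCs and kEpiSCs were compared by their deposited peak lists, 1 per line, on mm10. The authors mapped reads with Bowtie2, kept those that mapped uniquely, and called peaks with MACS2 at its defaults. Merging of replicates is described for ATAC-seq, to which the ChIP-seq methods refer for mapping, and is not stated for ChIP-seq itself, so a list may rest on 1 library. The submitters' processing notes name SAMtools and bedtools too. The labels' antibody field names c-Jun, but their protocol text names an H3K27ac antibody. The lists hold, per peak, the deposited fold enrichment (a ratio), score, −log10 p and −log10 q. Read totals were not analysed here.

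Distances ran from peak centres to TSSs of curated RefSeq transcripts on GRCm38.p6, the same build. Both strands of the central 200 bp were searched for motifs. Reads at the summit were solved from fold and p to within 0.01 for 100% and 99.6% of peaks (EpiSC, kEpiSC), assuming that 1 kEpiSC read counted as 0.775. Gene length was divided into 10 groups. No random genes were drawn. Python 3.11.15, numpy 2.4.6, pandas 2.3.3 and pysam 0.24.0 were used, and the routines were tested on simulated data. All 39 members are named by role. The members, the lists of roles and the other pathway genes were chosen with earlier results of these data known. The 300-base promoter comparison and the printed promoter sites were added after the peaks had been seen.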

Additional observations from a re-analysis of the deposited data

How the results depend on the processing

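The members' share with a peak stayed above that of all genes under every alternative run, between 1.57 and 2.89 times in EpiSCs (2.00 as reported) and between 1.81 and 4.50 times in kEpiSCs (3.41 as reported, with 1.81 at 50 kb). Of 65 alternatives, 56 stayed close to the reported value and 9 moved it. The number of members with a peak moved with the distance, from 17 to 11 at 5 kb and 31 at 50 kb in EpiSCs, and from 11 to 19 at 50 kb in kEpiSCs. Keeping only peaks that score above their list's median left 4 kEpiSC members. Among these peaks, AP-1 sites were in 8 of 15 EpiSC and 2 of 4 kEpiSC peaks, and antioxidant-type sites in 5 of 15 EpiSC peaks; fewer peaks were searched. The looser motif TGANNNNGC was found in 7 of 12 kEpiSC peaks in place of 3. Chosen after seeing the data, counting Mt1 and Mt2 as 1 gene gave 16 of 38 and 10 of 38 members, and without Mafk 11 of 24 EpiSC peaks and 5 of 10 kEpiSC peaks held an AP-1 site. No paired analysis was possible because the peak lists, 1 for EpiSCs and 1 for kEpiSCs, carry no replicate numbers, and leaving out a replicate could not be tried either.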
